A study of Mus musculus with 12 samples.

Results

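Mice with a high box:zone ratio in the social interaction test were compared with mice of the same inbred strain with a low ratio. The question was whether the amygdala transcriptomes of these animals differ. The labels give this ratio and not the time spent near the unfamiliar mouse. The measure is the box:zone ratio over 10 min, in which direct contact with a stranger mouse (box) is set against staying in its wider surroundings (zone). The high ratio group was made of the 6 mice with a ratio above 1 (mice 1, 3, 8, 9, 10 and 11) and the low ratio group of the 5 mice with a ratio below 1 (mice 2, 4, 6, 7 and 12). These were 11 of the 12 mice sequenced. Mouse 5 was left out because the study set it aside as an outlier in expression and its label carries no anxiety state.

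All mice were untreated female C57/BL6 animals, tested on the elevated plus maze at 9 weeks of age, in the light/dark test at 10 weeks and in the social interaction test at 11 weeks. No treatment, transgene or surgery separates the groups, and group membership is a threshold on a continuous behavior. Bilateral amygdala biopsies were cut from vibratome slices, and 1 mRNA library per mouse was sequenced on a single run. The study also gave each mouse a predicted anxiety state from a principal component of its expression values, and these states are spread over both groups. The high ratio group had 1 less anxious, 3 anxious and 2 more anxious mice, and the low ratio group had 2, 1 and 2.

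The amygdala joins cortex-like glutamatergic nuclei (the basolateral complex) with striatum-like GABAergic nuclei (the central and medial nuclei). The medial nucleus receives odor signals from other mice, and the central nucleus drives the bodily response to threat. Oxytocin and vasopressin act in the amygdala through receptors made by local cells, and are known for their part in social recognition and approach.

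The individual ratios at 10 min were 1.05 in mouse 1, 2.62 in mouse 3, 1.58 in mouse 8, 1.20 in mouse 9, 1.50 in mouse 10 and 1.39 in mouse 11. In the low ratio group they were 0.495 in mouse 2, 0.620 in mouse 4, 0.748 in mouse 6, 0.821 in mouse 7 and 0.668 in mouse 12. The mice nearest to the limit of 1 were thus mouse 1 above it and mouse 7 below it, and mouse 3 lay far above all others. The ratio of mouse 5 was 0.819. Because these ratios set the groups, they are given as a description without a test.

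The split was already present at 5 min, when the high ratio mice had values of 1.10 to 2.12 and the low ratio mice 0.514 to 0.866. At 3 min, 2 of the high ratio mice were still below 1 (mouse 1 at 0.943 and mouse 11 at 0.989), and mouse 4 has no value. Mouse 7 moved most among the low ratio mice, from 0.236 at 3 min to 0.866 at 5 min.

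**Figure D1:**
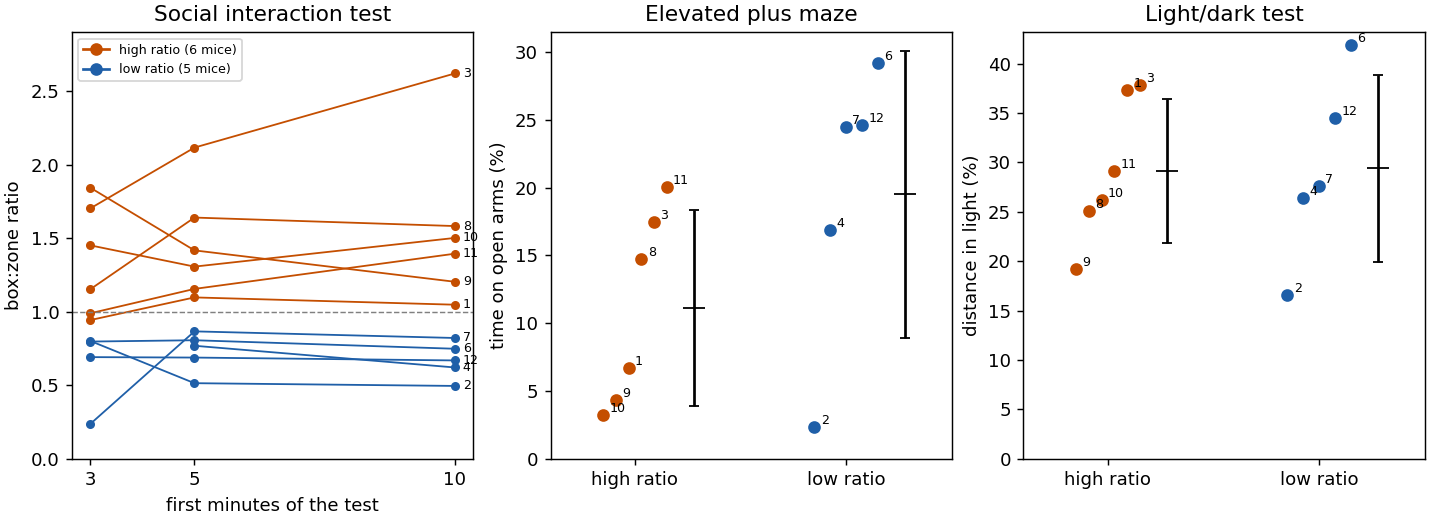
Behavior of the 11 mice, numbered at each point. Left, box:zone ratio up to 3, 5 and 10 min, with the limit of 1 dashed. Middle, time on the open arms (% of the time on open and closed arms). Right, distance traveled in light (% of all distance). Black marks show mean and SD. The ratio at 10 min separates the groups because it defines them. The ratio at 5 min, whose minutes are part of those 10 min, separates them too. Open-arm time and distance in light overlap.

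The tests of exploration did not separate the groups. On the elevated plus maze, time on the open arms is read as low anxiety and is given as % of the time on open and closed arms. This share was 11.1% ± 7.23 (SD, n = 6) in high and 19.5% ± 10.6 (SD, n = 5) in low ratio mice, with an exact two-sided permutation p of 0.147. The values were 6.73, 17.5, 14.7, 4.30, 3.25 and 20.1% in mice 1, 3, 8, 9, 10 and 11, and 2.33, 16.8, 29.2, 24.5 and 24.6% in mice 2, 4, 6, 7 and 12. Low ratio mice 6, 7 and 12 thus lay above every high ratio mouse, while low ratio mouse 2 lay below every one of them. Without mouse 2 the difference grew from -8.41 to -12.7 percentage points (exact permutation p = 0.0286, adjusted over the 4 measures p = 0.114). Without mouse 6 the difference shrank to -5.98 percentage points (exact permutation p = 0.286, adjusted p = 0.990).

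Total arm entries, a measure of activity, were 25.8 ± 6.18 (SD, n = 6) in high and 27.8 ± 13.9 (SD, n = 5) in low ratio mice (exact permutation p = 0.797). Time in light was 23.1% ± 8.34 and 26.9% ± 11.9 (exact permutation p = 0.576). Distance in light was nearly equal, 29.1% ± 7.28 and 29.4% ± 9.45 (exact permutation p = 0.952). The smallest exact p this design allows is 0.00433, and the adjusted values over these 4 measures were 0.589 for open-arm time and 0.952 for the others.

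Library totals ran from 31745630 to 44710867 estimated counts in high and from 33278984 to 45142355 in low ratio mice, with 26378 to 28196 and 27158 to 27763 genes detected. All 15 basolateral and all 15 central and medial amygdala marker genes reached a mean of 1 CPM (CPM scales the estimated counts of a gene to the size of its library, here after TMM scaling, and is not corrected for gene length). Of the 13 hypothalamic genes tested, 7 reached it. So did all 12 cortical and piriform, 10 of 12 hippocampal, 10 of 11 thalamic and 15 of 19 striatal-type genes. A mean of 1 CPM therefore does not set the amygdala apart from these regions. No difference between the groups on the main axes of expression passed the test. The paper reports that its own first component was negatively correlated with the social test measures, and used it as a covariate. On the first principal component, which carried 20.2% of the variance, high ratio mice had a mean score of 7.85 ± 17.6 (SD, n = 6) and low ratio mice -9.42 ± 12.5 (SD, n = 5), with an exact permutation p of 0.108 (adjusted over 5 components p = 0.541). Mouse 8, a high ratio mouse at -25.7, had the lowest score of all. Without it the difference grew from 17.3 to 24.0 (exact permutation p = 0.0159, adjusted p = 0.0794). Without high ratio mouse 3 the difference shrank to 13.6 (exact permutation p = 0.190, adjusted p = 0.476). The adjusted p for components 2 to 5 was 0.649. The sign of each component was set so that high ratio mice had the higher mean.

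No gene passed the test between high and low ratio mice. Of 26963 genes with at least 10 reads over the 11 mice, edgeR's quasi-likelihood test called 0 at a Benjamini-Hochberg adjusted p under 0.05 (0% of those tested). At an unadjusted p under 0.05 there were 533 genes with higher values in high ratio mice (1.98%) and 519 with lower values (1.92%), together 3.90% of the genes. Of all genes tested, 50.4% had a log2 fold change (high over low ratio) below 0. DESeq2's Wald test called 6 genes (0.0223%) and limma-voom 2 (0.00742%). All fold changes are high over low ratio, so a negative value is a lower level in high ratio mice.

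Among the 15891 genes with a mean of at least 1 CPM, 602 had an unadjusted p under 0.05 (328 higher and 274 lower), and the lowest adjusted p was 0.9997. Every gene in the following paragraphs had this adjusted p by edgeR unless another is stated, so the values describe these 11 mice and none of the differences was called. Genes whose values did not overlap at all between the groups numbered 30 with all high ratio mice above (0.189% of 15891) and 18 with all high ratio mice below (0.113%).

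The depth and number of mice set narrow limits for most genes. The median standard error of a log2 fold change was 0.125 and the median half-width of its 95% interval 0.266. For 15119 of the 15891 genes (95.1%) the whole interval lay within a 2-fold change in either direction, and for 12786 (80.5%) within 1.5-fold. Differences smaller than these could not be resolved for single genes. Folds over 1 on the log2 scale occurred in 68 genes, and in the 8 that exceeded 3 on that scale at least 72.7% of the summed CPM came from 2 mice.

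**Figure D2:**
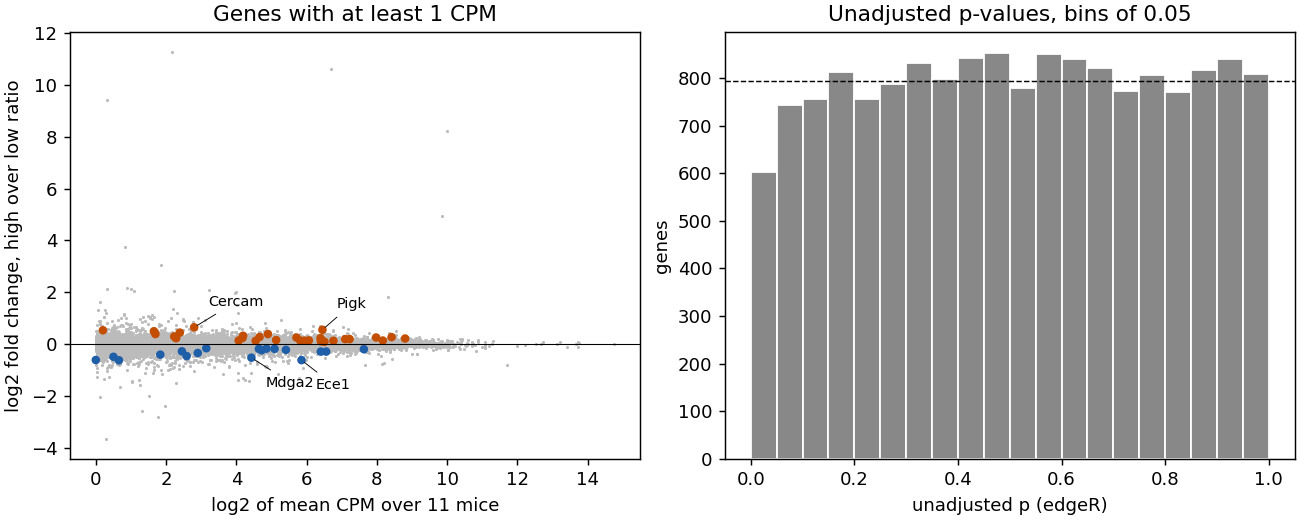
Left, log2 fold change (high over low ratio) against log2 mean CPM for 15891 genes, with the 48 genes whose values did not overlap between the groups in orange (higher) or blue (lower). Right, number of genes per unadjusted p bin of 0.05, with 602 in the lowest bin, 743 to 854 in the others, and the dashed line at the even share of 794.55.

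Among the 10 genes with the lowest unadjusted p and higher values in high ratio mice, Cercam and Pigk came first. Cercam (chromosome 2, 29869164 to 29882840, GRCm38) encodes a cell adhesion molecule of cerebral endothelium. It measured 7.21, 8.09, 7.28, 8.18, 10.6 and 8.64 CPM in high ratio mice 1, 3, 8, 9, 10 and 11, and 4.89, 4.73, 5.36, 5.95 and 5.63 CPM in low ratio mice 2, 4, 6, 7 and 12. Every high ratio mouse was above every low ratio mouse, and the log2 fold change was 0.65 (SE 0.13, 95% interval 0.38 to 0.92). DESeq2's Wald test gave it an adjusted p of 0.00329, and mouse 5, whose ratio was low, had 5.23 CPM.

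Pigk (chromosome 3, 152714100 to 152980408) encodes the catalytic subunit of the transamidase that attaches GPI anchors to proteins. Its levels were 106, 106, 84.3, 133, 88.3 and 95.6 CPM in high ratio mice 1, 3, 8, 9, 10 and 11 and 64.8, 59.4, 72.9, 77.9 and 73.1 CPM in low ratio mice 2, 4, 6, 7 and 12. The groups did not overlap (log2 fold change 0.56, SE 0.11), and DESeq2 gave an adjusted p of 0.0472. Mouse 5 had 87.7 CPM, within the range of the high ratio mice. Pigk overlaps 6 other annotated genes and Cercam 1, and how reads were divided among them is not known.

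Hdac9, a class IIa histone deacetylase that represses MEF2 targets in muscle and neurons, ranged from 29.0 to 39.9 CPM in high and from 22.5 to 27.6 CPM in low ratio mice, with no overlap (log2 fold change 0.39). Kctd18 ranged from 17.4 to 23.0 CPM in high and from 14.9 to 17.2 CPM in low ratio mice, also with no overlap (log2 fold change 0.33). Mad1l1, a component of the spindle assembly checkpoint, had a larger log2 fold change of 0.79, but high ratio mouse 11 at 10.7 CPM lay within the low ratio range of 9.36 to 12.8 CPM. Vip, the vasoactive intestinal peptide of a class of cortical and amygdalar interneurons, measured 28.3 ± 3.77 CPM (SD, n = 6) in high and 21.9 ± 2.03 CPM (SD, n = 5) in low ratio mice (log2 fold change 0.37).

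The other 4 of these genes were Pold1 (the catalytic subunit of DNA polymerase delta, log2 fold change 0.54), Mpnd (0.34), Ccndbp1 (0.38, a cyclin D1 binding protein) and 2210418O10Rik (1.52). In 2210418O10Rik, high ratio mice had 13.1 to 34.0 CPM and low ratio mice 2.97 to 14.6 CPM. This gene lies in a cluster of near-identical copies on chromosome 2, where reads may have been split between copies.

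Shroom1 and Pogz led the genes with lower values in high ratio mice. Shroom1, an actin-binding regulator of cell shape, measured 4.68 ± 1.03 CPM (SD, n = 6) in high and 9.71 ± 3.65 CPM (SD, n = 5) in low ratio mice, a log2 fold change of -1.05 (SE 0.24). Low ratio mice 12 and 6 were highest at 14 and 12.9 CPM, and low ratio mouse 2 at 5.13 CPM was within the high ratio range of 3.38 to 5.89 CPM. Pogz, a zinc finger protein with a transposase-derived domain whose human ortholog is mutated in a neurodevelopmental syndrome, measured 58.7 ± 7.90 and 82.8 ± 16.5 CPM (log2 fold change -0.50), with mouse 2 again overlapping at 63.3 CPM.

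Mdga2 (chromosome 12, 66466060 to 67222549) encodes a GPI-anchored cell surface protein that binds neuroligins and limits synapse formation. It measured 18.9, 20.5, 21.4, 12.8, 19.3 and 14.9 CPM in high ratio mice 1, 3, 8, 9, 10 and 11, and 23.6, 24.0, 23.1, 27.9 and 30.4 CPM in low ratio mice 2, 4, 6, 7 and 12. The groups did not overlap (log2 fold change -0.52, SE 0.13), and mouse 5 had 46.0 CPM, above all 11 mice. Grb7, a receptor tyrosine kinase adapter, and Zfp523, a zinc finger transcription factor, did not overlap either, with log2 fold changes of -0.62 and -0.29. Grb7 was near the lower limit of the description, at 0.977 to 1.58 CPM in high and 1.63 to 2.35 CPM in low ratio mice.

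The remaining members of this set of 10 were Zdhhc2, a palmitoyltransferase that acts on the postsynaptic protein PSD-95 (log2 fold change -0.41), Adgrg1, an adhesion G protein-coupled receptor (-0.28), Taf1c, a subunit of the RNA polymerase I selectivity factor (-0.51), Gm2163 (-0.87) and Nhej1, a DNA end-joining factor (-2.01). For Nhej1 the difference came from low ratio mice 2, 4 and 6, with 11.2, 5.41 and 5.42 CPM, while low ratio mice 7 and 12 had 0.979 and 1.28 CPM, within or below the high ratio range of 1.08 to 1.54 CPM. Mouse 5 had 37.7 CPM of it. Gm2163 belongs to a duplicated region of chromosome 4 and its count is uncertain.

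Mouse 5 was not used in choosing these 20 genes. Its level was nearer to the low than to the high ratio mean in 8 of the 10 genes with higher values in high ratio mice, and in 4 of the 10 with lower values. It was a low ratio mouse that stood apart in expression.

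**Figure D3:**
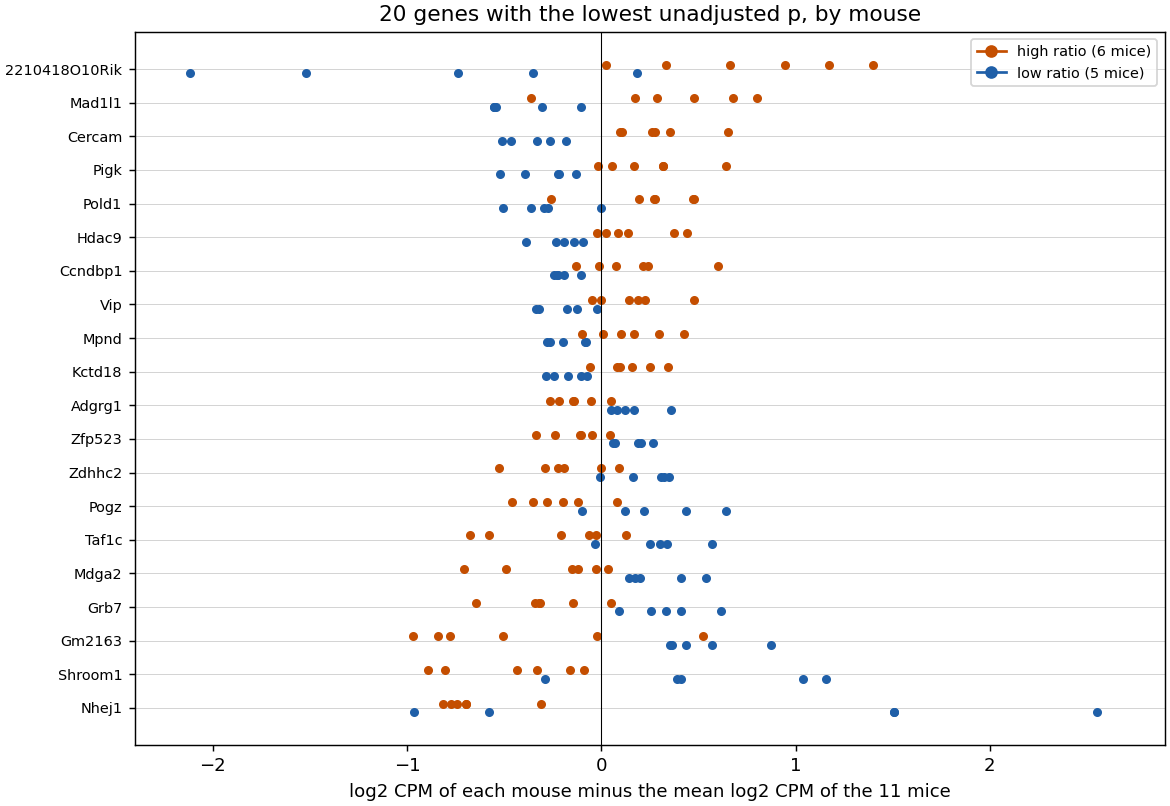
Log2 CPM of each of 11 mice minus their mean, for the 20 genes with the lowest unadjusted p among genes of at least 1 CPM; orange, high ratio; blue, low ratio. The groups do not overlap in Cercam, Pigk, Hdac9 and Kctd18 above and in Zfp523, Mdga2 and Grb7 below, and in Nhej1 3 low ratio mice lie far from the other points.

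The genes that any other test called were mostly sparse. Gm12960, a processed pseudogene on chromosome 4, had 4, 8, 8, 9 and 7 reads in low ratio mice 2, 4, 6, 7 and 12 and 0 in all 6 high ratio mice (edgeR adjusted p = 0.454, DESeq2 0.00453, limma-voom 0.0226). The pseudogene 2010010A06Rik had 13, 7, 8, 13 and 7 reads in the same low ratio mice and 1 read in the high ratio group, in mouse 3 (edgeR adjusted p = 0.0524, DESeq2 0.00267, limma-voom 0.0187). Mouse 5, a low ratio mouse, had 0 reads of either. A count of 0 allows up to 3 reads, for counting error only.

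Lgals7, a galectin of stratified epithelia, had 20, 20, 20, 40, 20 and 1 reads in high ratio mice 1, 3, 8, 9, 10 and 11 and 1, 5, 1, 2 and 0 in low ratio mice 2, 4, 6, 7 and 12 (DESeq2 adjusted p = 0.0188). High ratio mouse 11 fell among the low ratio mice. Pgam1-ps2, also called by DESeq2, had reads in 2 mice, 1707 in mouse 9 and 354 in mouse 11. These 4 genes were chosen after their values were seen.

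The oxytocin and vasopressin system, the neuropeptide system best known for social behavior, gave no call. Of its 8 genes 0 were called and 0 had an unadjusted p under 0.05, while 7 had negative log2 fold changes with a median of -0.18, against 50.4% of all genes below 0 and a median of -0.00173. The median of the list was -0.06 without mouse 9 and -0.26 without mouse 1. Oxtr, the oxytocin receptor, measured 14.3, 17.8, 22.6, 16.3, 15.3 and 17.0 CPM in high ratio mice 1, 3, 8, 9, 10 and 11 and 17.4, 20.4, 16.3, 20.2 and 14.5 CPM in low ratio mice 2, 4, 6, 7 and 12. The groups overlapped throughout, and the 95% interval of the log2 fold change of -0.05 ran from -0.32 to 0.22. Avpr1a, the main vasopressin receptor of the brain, was low in both groups at 0.223 to 0.704 CPM.

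Of the peptides themselves, Oxt was sparse, with 3 to 59 reads per mouse. It ranged from 0.0862 to 0.862 CPM in high and from 0.0753 to 1.77 CPM in low ratio mice. Avp had more reads, 13 to 711 per mouse. It ranged from 0.393 to 7.34 CPM in high ratio mice, and low ratio mouse 6 stood out at 21.3 CPM against 0.402 to 4.14 CPM in the other low ratio mice.

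Among 24 neuropeptide genes tested 0 were called, 16 had values below 0, and the median was -0.13. Vip and Adcyap1, which encodes the stress-related peptide PACAP, had unadjusted p under 0.05 with higher values in high ratio mice. Adcyap1 measured 31.5 ± 8.15 CPM (SD, n = 6) and 22.4 ± 6.37 CPM (SD, n = 5), with overlap. Penk, the enkephalin precursor, was lower at 228 ± 81.4 against 374 ± 158 CPM (log2 fold change -0.72), with low ratio mice 6, 7 and 12 at 434, 465 and 554 CPM and low ratio mice 2 and 4 at 222 and 196 CPM. Crh, the corticotropin-releasing hormone of central amygdala neurons, ranged from 4.28 to 7.06 CPM in high and from 5.31 to 5.92 CPM in low ratio mice. Sst and Npy, markers of long-range and local inhibitory neurons, had log2 fold changes of -0.20 and -0.24. Of the 29 neuropeptide receptors 19 were below 0, and Nmbr, the neuromedin B receptor, had an unadjusted p under 0.05 (log2 fold change -0.56).

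Genes of dopamine signaling and striatum-type medium spiny neurons were lower in high ratio mice in 17 of 19 cases, with a median log2 fold change of -0.37 and 0 called. The median was nearer to 0 without mouse 12 (-0.06) and with the anxiety state as a covariate (-0.07), and farther from it without mouse 2 (-0.48) and with the first principal component as a covariate (-0.55). Adcy5, the adenylyl cyclase downstream of dopamine receptors, was the only member with an unadjusted p under 0.05 (log2 fold change -0.27). Drd2, the D2 receptor, measured 5.72, 2.95, 1.80, 4.42, 2.92 and 1.66 CPM in high ratio mice 1, 3, 8, 9, 10 and 11 and 2.15, 1.16, 5.42, 7.50 and 14.5 CPM in low ratio mice 2, 4, 6, 7 and 12. Low ratio mice 6, 7 and 12 had high levels and low ratio mice 2 and 4 low ones, so that the low ratio group held the highest and the lowest value. Its log2 fold change of -0.92 moved to -0.32 without mouse 12 and to -1.19 without mouse 4, and was -0.14 with the anxiety state and -1.29 with the first principal component as a covariate. Drd1, the D1 receptor, had 10.6 to 24.8 CPM in high and 12.6 to 37.7 CPM in low ratio mice. The summed level of the 19 genes was 427 to 649 CPM in high and 426 to 1107 CPM in low ratio mice. In bulk tissue, fewer cells of a type and less RNA per cell cannot be told apart, and the dorsal striatum borders the dissected region.

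GABA neuron genes showed a similar lean, with 14 of 17 below 0, a median of -0.11 and 0 called. Dlx5 and Dlx6, homeobox genes of forebrain inhibitory neurons, and Slc32a1, the vesicular GABA transporter, had unadjusted p under 0.05, with log2 fold changes of -0.47, -0.44 and -0.34. Dlx5 was 4.42 to 8.45 CPM in high and 7.37 to 8.89 CPM in low ratio mice, and only high ratio mouse 1 reached the low ratio range. Meis2 and Dlk1, of the central and medial amygdala list, were also lower with unadjusted p under 0.05 (log2 fold changes -0.44 and -0.41). Meis2 was at 88.6 to 94.5 CPM in 5 of the high ratio mice and at 128 CPM in mouse 1, and at 89.9 and 93.2 CPM in low ratio mice 2 and 4 against 153 to 167 CPM in mice 6, 7 and 12. That list was below 0 in 10 of 15 members, with a median of -0.22 that was -0.47 without mouse 1 and -0.14 without mouse 9. Its summed level was 226 to 325 CPM in high and 248 to 409 CPM in low ratio mice.

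GABA-A receptor subunits went the other way, with 11 of 14 above 0, although the median was 0.04. Ionotropic glutamate receptors (7 above and 11 below 0, median -0.02) and 26 synaptic genes tied to social behavior, such as the Shank, neuroligin and neurexin genes (8 above, 18 below, median -0.05), had 0 members with an unadjusted p under 0.05. Basolateral amygdala genes likewise had 0, with 5 of 15 above 0 and a median of -0.03. Of the 13 serotonin receptors, Htr1d had an unadjusted p under 0.05 (log2 fold change -0.99, 1.48 to 3.33 CPM in high and 1.68 to 6.91 CPM in low ratio mice), and the median of the list was -0.02.

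Immediate early genes, which neurons switch on within minutes of activity, were below 0 in 23 of 25 cases with a median of -0.19, and 0 were called. The median was nearer to 0 without mouse 3 (-0.06) and with the first principal component as a covariate (-0.01), and farther from it without mouse 10 (-0.30) and with the anxiety state as a covariate (-0.38). Fos measured 19.5, 4.28, 36.1, 7.09, 42.9 and 24.5 CPM in high ratio mice 1, 3, 8, 9, 10 and 11 and 36.3, 31.5, 23.1, 32.2 and 19.9 CPM in low ratio mice 2, 4, 6, 7 and 12. Mice 3 and 9 were low and mouse 10 was the highest, and the low ratio values lay within the high ratio range. Egr1 was at 94.3 to 222 CPM in high and 118 to 156 CPM in low ratio mice. Klf4, the member with the lowest p, had a log2 fold change of -0.48. Relative to the average of the 11 mice, the mean log2 level of the list was -0.94 in mouse 3, the mouse with the highest social ratio, -0.39 in low ratio mouse 12 and 0.43 to 0.44 in high ratio mouse 10 and low ratio mouse 2.

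**Figure D4:**
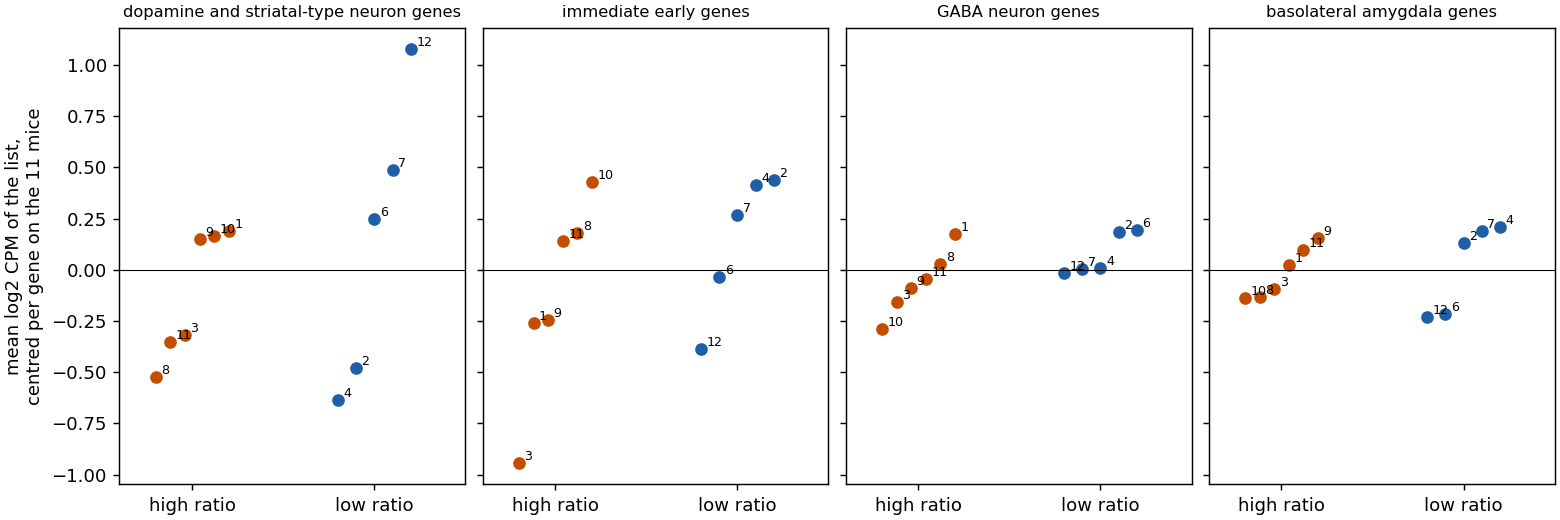
Mean log2 CPM of 4 gene lists in each mouse, centred per gene on the 11 mice, with mouse numbers. The groups overlap in every panel, and in the striatal-type panel low ratio mice 12, 7 and 6 are high while low ratio mice 2 and 4 lie with the lowest high ratio mice.

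Steroid and stress genes gave few differences. The gonadal steroid list of 12 genes held receptors and enzymes, related orphan receptors and Greb1, an estrogen-induced cofactor of the estrogen receptor. Greb1 was lower at 1.25 ± 0.685 CPM (SD, n = 6) against 3.71 ± 1.68 CPM (SD, n = 5), a log2 fold change of -1.57 (unadjusted p under 0.05). Low ratio mice 2, 6, 7 and 12 were at 3.93 to 5.00 CPM, all above the high ratio mice, and low ratio mouse 4 was at 0.788 CPM. Esrrb, an estrogen-related orphan receptor, also had an unadjusted p under 0.05, with the opposite sign (log2 fold change 0.45). It was at 1.42 to 2.56 CPM in high and 0.894 to 1.56 CPM in low ratio mice. No other member of the list, and so no gonadal steroid receptor or enzyme itself, had an unadjusted p under 0.05. Esr1, the estrogen receptor alpha, was at 7.82 to 16.0 CPM in low and 8.27 to 26.2 CPM in high ratio mice (log2 fold change 0.40). The labels give no estrous stage. Of 16 glucocorticoid receptors and targets 14 were below 0 (median -0.10), with 0 at an unadjusted p under 0.05.

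Ece1, the endothelin-converting enzyme, was the only 1 of the 515 list members tested whose values did not overlap. Among the 15891 genes of at least 1 CPM, 18 (0.113%) had all high ratio mice below and 30 (0.189%) had all above. It measured 58.5, 25.2, 41.7, 55.1, 51.5 and 47.7 CPM in high ratio mice 1, 3, 8, 9, 10 and 11 and 68.0, 62.8, 97.6, 62.4 and 66.2 CPM in low ratio mice 2, 4, 6, 7 and 12 (log2 fold change -0.62, SE 0.19). Mouse 5, also of low ratio, had 13.2 CPM, below all 11 mice. Of the 9 endothelin genes 6 were below 0. Ptch1, the hedgehog receptor, had a log2 fold change of -0.60 with 23.6 to 56.6 CPM in high and 28.2 to 74.8 CPM in low ratio mice, and the 15 hedgehog genes had a median of -0.06. Ece1 and Ptch1 were looked up because the study names them for its anxiety groups. A separate list of 25 other pathway genes named for those groups, which holds neither of them, had 19 members below 0 (median -0.17) and 0 with an unadjusted p under 0.05.

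Most glial and vascular genes were below 0 by small amounts. Astrocyte genes were below 0 in 11 of 16 cases with a median of -0.06, and Gjb6 (connexin 30) and Aldoc had unadjusted p under 0.05 with lower values (log2 fold changes -0.48 and -0.19). Endothelial and mural genes were below 0 in 15 of 20 cases (median -0.11), with Pdgfrb (-0.22) and Ly6c1 (-0.25) at an unadjusted p under 0.05. Oligodendrocyte genes were below 0 in 13 of 16 (median -0.09, Myrf -0.32), precursor genes in 4 of 8 (median -0.04, Pdgfra -0.21) and microglia genes in 10 of 16 (median -0.03), with Myrf and Pdgfra as their only members of that kind. The summed level of the 16 oligodendrocyte genes was 1839 to 3621 CPM in high and 2371 to 3858 CPM in low ratio mice.

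Markers of neighboring structures varied with single mice. Ependymal genes were above 0 in 9 of 10 cases (median 0.22), with a summed level of 16.8 to 35.3 CPM in high and 18.8 to 20.9 CPM in low ratio mice and the top value in mouse 3, without which the median was 0.00467. Choroid plexus genes were below 0 in 14 of 18 (median -0.10), with Kl and Clic6 at unadjusted p under 0.05, summed levels of 169 to 225 and 186 to 250 CPM, and the potassium channel Kcnj13 at 0.134 to 5.16 CPM over the 11 mice. Pituitary hormones were highest in low ratio mouse 4, where Prl, prolactin, reached 32.1 CPM, against 0 to 4.56 CPM in the other 10. Among the other lists, Oas1a of the interferon genes (log2 fold change -0.76) was sparse, at a mean of 0.407 CPM. Oas1a, Lef1 of the thalamic (-0.57) and Tef of the circadian clock genes (-0.44) had unadjusted p under 0.05, all with lower values. Cortical and piriform (-0.03), hippocampal (0.03), hypothalamic (-0.14), meningeal (-0.13), blood cell (-0.04), heat shock (-0.01) and cholesterol synthesis genes (-0.06) had no such member, with these medians.

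Over all 35 lists, which were chosen with earlier results of these data known, 515 different genes were tested and 0 were called. An unadjusted p under 0.05 was found for 28 (5.44%, against 3.90% of all genes tested). Of these 28, 24 were lower in high ratio mice (4.66% of the members, against 1.92% of all genes) and 4 were higher (0.777%, against 1.98%). Among the 15891 genes of at least 1 CPM, 274 were lower and 328 higher at that threshold. The median was below 0 in 30 of the 35 lists, and in 26 to 31 of them when single mice were left out. Of the 30 medians below 0, 13 changed sign without at least 1 of the mice and 17 did not. Lists share mice, members and cell types, and several of the lower members (Penk, Slc32a1, Meis2, Htr1d and Tef) had their 3 highest values in low ratio mice 6, 7 and 12, so these counts are not independent of one another. The part of tissue composition in them was not tested.

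**Figure D5:**
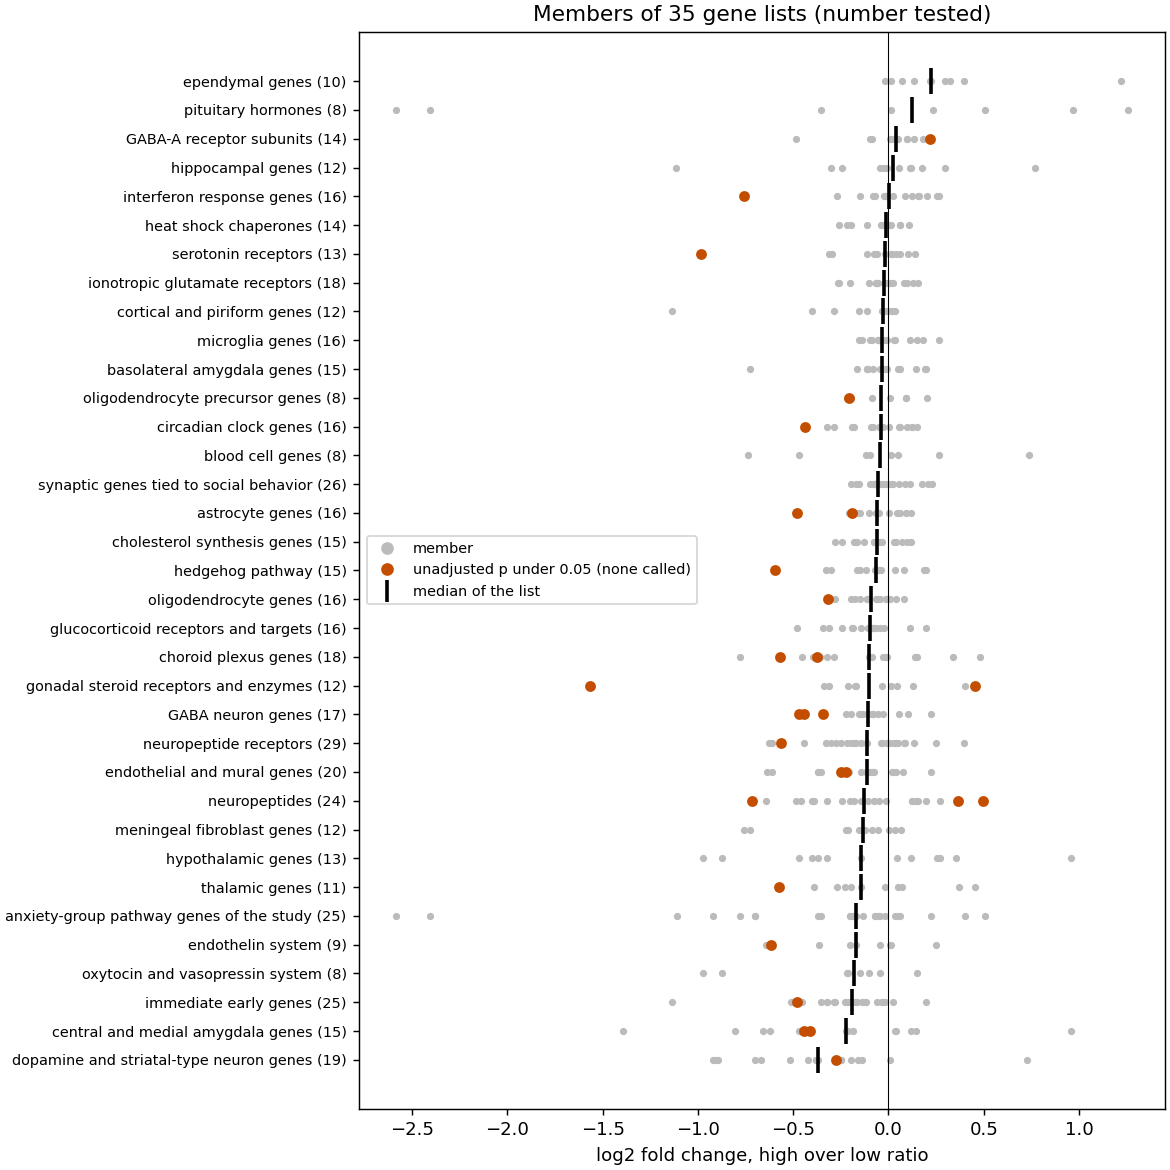
Log2 fold change (high over low ratio) of each tested member of 35 gene lists, ordered by list median (black bars); members with an unadjusted p under 0.05 are orange, and none was called. Medians run from -0.37 in the dopamine and striatal-type list to 0.22 in the ependymal list.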

How the data were processed

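The authors trimmed reads, quantified transcripts with Salmon, collapsed them to genes with tximport, and deposited estimated counts (expected counts, as whole numbers, without normalization) for 47729 genes and 12 mice; the submitters' processing notes name mm10, and the annotation release and strand setting are not given in the sources used here. Groups and behavior values came from the sample labels. Gene positions are from GENCODE M21 (GRCm38), which held 99.1% of the genes. The members and lists were chosen with earlier results of these data known.

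Tests were run in edgeR 4.0.16, limma 3.58.1 and DESeq2 1.42.0 under R 4.3.3, and with scipy 1.17.1 under Python 3.11.15. The comparison used edgeR's quasi-likelihood test (robust, TMM factors, genes with at least 10 reads over 11 mice) without covariates, and adjusted p-values under 0.05 by Benjamini-Hochberg were called. CPM values used TMM factors. Principal components were computed on values from the vst function of DESeq2 without knowledge of the groups. Their signs were then set so that the high ratio group had the higher mean on each component. Behavior and component scores were compared by exact two-sided permutation tests. Scripts were tested on simulated data.

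The genes named were called genes, the 10 in each direction with the lowest p among those of at least 1 CPM, up to 4 members per list with an unadjusted p under 0.05 (else the most abundant), and 18 fixed genes; 2 list members that the rule names are not reported here, genes outside the rule are marked, and members cited only as examples of a list carry no test of their own. The test, normalization, filter, covariate, coding of the ratio and set of mice were varied, as given at the end. Each mouse is a separate animal with 1 library, and no library repeated another (lowest mean chi-square per gene 13.1 over 55 pairs).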

Additional observations from a re-analysis of the deposited data

Results flagged for a closer look

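Within the groups, 176 sets of values (behavior measures, component scores and named genes in each group) were searched for a mouse far from the rest by Dixon's criterion, which by chance flags about 1 in 20, and 14 were found. In the high ratio group, the social ratio of mouse 3 (2.62) and the first component score of mouse 8 (-25.7) stood apart. For genes, the mice that stood apart in this group were mouse 11 for Nhej1 (1.54 CPM), mouse 1 for Dlx6 (14.2 CPM) and Meis2 (128 CPM), and mouse 3 for Rarres2, an ependymal list member (10.3 CPM). Mouse 10 stood apart for Igf2 (117 CPM) and Hmgcs1, a cholesterol synthesis enzyme (336 CPM), mouse 8 for the calpain Capn11 (7.28 CPM), and mouse 9 for Scand1 (25.8 CPM). In the low ratio group, mouse 4 stood apart for Greb1 (0.788 CPM) and Prl (32.1 CPM), and mouse 6 for Ece1 (97.6 CPM) and Avp (21.3 CPM).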

How the results depend on the processing

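The count of 0 called genes was also found with DESeq2 size factors, filterByExpr, the non-robust fit, the anxiety state or the first component as covariate, the rank of the ratio, mouse 5 added and each mouse left out. It was 1 with no filter (2010010A06Rik), 1 with the log2 ratio as a number (Gm28453, with 289 reads in mouse 3 and at most 7 elsewhere), 2 with limma-voom and 6 with DESeq2's Wald test. Genes with an unadjusted p under 0.05 numbered 768 to 1615, the latter with the log2 ratio as a number. No paired analysis was possible because the labels give no number shared between mice of the groups.

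Signs changed for small differences and for some large ones, Avp (-0.97), Kcnj13 (-0.78) and Prl among them, and 17 of the 35 list medians changed sign without at least 1 mouse. Distance in light became 1.84 with mouse 5 added; leaving out 1 mouse moved it over -3.49 to 2.83, total entries over -7.42 to 1.58 and time in light over -6.88 to 1.15. Component 5 was -1.91 on log2 CPM and component 2 was -2.83 with the exploratory filter, and leaving out 1 mouse gave -0.135 to 10.7 for component 2 and -0.768 to 10.999 for component 3. Among named genes, log2 fold changes that changed sign were 0.000991 for Gria2, 0.64 for Kcnj13 and -0.00237 for Slc17a7 with the anxiety state as covariate. They were 0.0113 for Gria2, 0.21 for Kcnj13, 0.0239 for Oxtr, -0.29 for Scand1 and -0.0379 for Slc17a7 with the log2 ratio, and 0.00485 for Gria2, 0.00801 for Igf2, 0.22 for Kcnj13, 0.0412 for Oxtr and -0.24 for Scand1 with ranks. With the first component as covariate they were 0.11 for Egr1, 0.0522 for Fos, 0.25 for Nrgn and 0.0986 for Oxtr. Adding mouse 5 gave 0.0561 for Nrgn and -0.0566 for Rasgrf2. Leaving out 1 mouse gave ranges across 0 for Avp (-1.47 to 0.49), Avpr1a (-0.31 to 0.00231), Egr1 (-0.25 to 0.0282), Gria2 (-0.0529 to 0.00775), Igf2 (-0.71 to 0.12), Magel2 (-0.21 to 0.00821), Nrgn (-0.20 to 0.0879), Oxtr (-0.14 to 0.0125), Prl (-3.36 to 0.92), Rasgrf2 (-0.0485 to 0.11), Rxfp1 (-0.31 to 0.0361), Scand1 (-0.34 to 0.60) and Slc17a7 (-0.0524 to 0.15). The cause was not tested.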

Other observations

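Housekeeping families not among the lists leaned toward higher values in high ratio mice, and these families were chosen after the values were seen, so no test was made. Of the 15891 genes with at least 1 CPM, 49.1% had a log2 fold change below 0, and the median was 0.00269. Of 89 nuclear genes of oxidative phosphorylation, the mitochondrial machinery that makes ATP, 67 were above 0 (75.3%), with a median of 0.08. Leaving out any single mouse gave a median of 0.04 to 0.11. Mitochondrial ribosomal proteins were above 0 in 61 of 78 (median 0.07) and proteasome subunits in 30 of 37 (median 0.06). None of these genes was called. Mean centred log2 CPM of the oxidative phosphorylation genes ran from -0.16 (mouse 11) to 0.19 (mouse 9) in high and from -0.25 (mouse 12) to 0.07 (mouse 6) in low ratio mice, so the groups overlapped. Cytosolic ribosomal proteins were above 0 in 52 of 80 (median 0.04), and this median ran from -0.01 to 0.08 when single mice were left out.

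Fold changes also varied with gene length. In 5 classes of 15838 genes by exonic length, the median log2 fold change was 0.02 in the shortest (59 to 2293 bases), then 0.01, 0.00248 and -0.00593, and -0.01 in the longest (7416 to 123179 bases). Genes with an unadjusted p under 0.05 were split 84 higher and 36 lower in the shortest class and 48 higher and 82 lower in the longest. Whether the lean of the housekeeping families is part of this pattern was not tested.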
